A study of Mus musculus with 14 samples.

Results

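The genes described here are those that T cells switch on within minutes to hours of a signal through the T cell receptor: Nr4a1, Nr4a3, Egr1, Egr2, Egr3, Cd69, Cd5, Fos and Jun. They were taken by symbol from the gene count table, in which 8 of the 9 were among the 12421 genes listed. Egr3 is not analysed here. All 8 passed the filter on low counts in the 7 comparisons.

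Signals from the T cell receptor run through calcium and calcineurin to NFAT factors, and through Ras and ERK kinases to serum response factor and its partners. The nuclear receptors of the Nr4a family and the zinc finger factors of the Egr family are transcribed at once, without new protein synthesis, together with Fos and Jun, which pair to form the AP-1 factor. CD69 reaches the cell surface soon after, whereas CD5 is a surface inhibitor of receptor signalling whose level is set during thymic selection. Fos, Jun, Egr1 and Nr4a1 are also induced by growth factors, cytokines and stress, so that their transcripts alone do not name the signal. These genes are used in thymocytes as readers of receptor signal strength.

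RNA sequencing covered 8 mouse T-cell acute lymphoblastic leukaemias (T-ALL) of the VTL model, which is driven by the oncogene Lmo2, in 14 libraries. Every leukaemia had been grown from thymocytes in irradiated F1 mice and passed on to C57BL/6-Rag1-/- hosts, which make no T or B cells of their own, and donor cells carrying both CD45.1 and CD45.2 were sorted from the hosts' spleens. By their relation to Lmo2 the labels name 2 tumours dependent (VTL-24 and VTL-19), 3 evolving (VTL-21, VTL-153 and VTL-25) and 3 independent (VTL-44, VTL-33 and VTL-81). From each tumour 1 library came from hosts kept off doxycycline (Dox). Tumours of the evolving and independent classes gave 1 more each from hosts fed Dox (600 mg/kg food). The dependent tumours have no library with Dox here, and the labels give neither the promoter of the Lmo2 transgene, nor the age of the mice, nor how many hosts made up a library. Replicates carry different tumour numbers, and the labels say no more on how independent they are.

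Library totals ran from 18214415 to 24048281 counts, and mitochondrial genes held 1.62% to 6.01% of them. Levels are CPM, which divide a gene's counts by the library's total, after scaling by TMM factors. Lmo2 (chromosome 2, 103957986 to 103981878 on mm10) checks the labels: it stood lower with Dox in all 6 tumours sequenced both ways, at 303 to 708 CPM without and 0.198 to 3.24 CPM with Dox in the evolving tumours. Among the independent tumours it went from 600.3 to 1.32 CPM in VTL-33, but only from 9.28 to 4.09 CPM in VTL-44 and from 27.2 to 8.46 CPM in VTL-81. The last 2 were thus low in Lmo2 even without Dox, below the 142 (VTL-24) and 120 CPM (VTL-19) of the dependent tumours. All 8 T lineage markers were listed, and their summed level was 4193 to 7906 CPM per library. Of the markers of other cells, 14 of 15 myeloid genes were listed (summed 19.7 to 2219 CPM), 7 of 10 erythroid (0.14 to 146 CPM), 4 of 8 stromal and endothelial (142 to 902 CPM) and 2 of 5 natural killer genes (66.8 to 1529 CPM). The 6 of 10 listed B cell genes summed to 91.0 to 856 CPM in 13 libraries and to 8070 CPM in VTL-21 with Dox, where Ighm alone gave 6275 CPM and Igkc 1627 CPM. Cd74 and H2-Aa were also higher there than in VTL-21 without Dox, at 120 against 15.8 and 41.9 against 3.82 CPM. Blk and Cd79b were lower, at 1.52 against 15.5 and 4.47 against 15.1 CPM. The 4 genes of that list beyond these 6 are not analysed here. In sorted bulk cells, fewer cells of a type and less RNA per cell cannot be told apart.

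Several libraries differed from what their tumour number implies. The leading T cell receptor beta segment of VTL-25 was Trbv24 at 238 CPM without Dox, with Trbv13-1 next at 59.6 CPM. With Dox it was Trbv5 at 270 CPM. In VTL-21 Trbv24 led both libraries, while the next segment was Trbv13-1 (39.6 CPM) without and Trbv13-2 (7.46 CPM) with Dox. VTL-153 had Trbv24 and then Trbv13-1 in both. All 3 evolving libraries without Dox thus had the same leading segment and the same next one. Shared leading segments also occurred elsewhere. Trbv24 led both libraries of the independent VTL-33 (326 and 369 CPM, with Trbv13-2 next), and Trbv2 led VTL-24, VTL-19 and VTL-81. Whether the 3 evolving libraries without Dox are separate clones was not tested, and the class comparisons without Dox count them as 3 tumours. Without Dox, VTL-153 and VTL-25 were also unusually alike: only 3 genes exceeded 20 CPM in one while staying under 0.5 CPM in its counterpart, whereas every other pair of tumours had 21 to 130 such genes. The Dox result of each listed gene in the evolving tumours is therefore also given for VTL-153 alone, its spread taken from the independent tumours, a choice made after the data were seen.

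The promoter windows of 4 of the genes are printed because the results below turn on these genes: Nr4a1, the gene that passed the test; Egr2, which varied with Egr1; and Fos and Jun, the AP-1 pair, which parted in some tumours. They come from RefSeq (GRCm38.p6, the build of mm10), 250 bases before to 50 after a transcript start, read 5′ to 3′ on the gene's strand. Capitals mark matches, on either strand, to the serum response element known as the CArG box, the cyclic AMP response element core TGACGT, the AP-1 site TGANTCA, its spaced form TGANNTCA and the EGR site GCGNGGGCG. TGANNTCA and TGACGT can overlap. Nr4a1 is at chr15:101266596-101266895, plus strand; Egr2 at chr10:67537619-67537918, plus strand; Fos at chr12:85473640-85473939, plus strand; and Jun at chr4:95052173-95052472, minus strand.
Nr4a1: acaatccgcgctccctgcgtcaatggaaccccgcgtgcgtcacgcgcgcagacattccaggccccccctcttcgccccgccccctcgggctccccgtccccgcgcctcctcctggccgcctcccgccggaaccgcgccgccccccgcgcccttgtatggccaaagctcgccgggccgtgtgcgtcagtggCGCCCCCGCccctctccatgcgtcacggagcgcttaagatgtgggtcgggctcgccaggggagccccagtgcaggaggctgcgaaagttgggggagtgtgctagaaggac
Egr2: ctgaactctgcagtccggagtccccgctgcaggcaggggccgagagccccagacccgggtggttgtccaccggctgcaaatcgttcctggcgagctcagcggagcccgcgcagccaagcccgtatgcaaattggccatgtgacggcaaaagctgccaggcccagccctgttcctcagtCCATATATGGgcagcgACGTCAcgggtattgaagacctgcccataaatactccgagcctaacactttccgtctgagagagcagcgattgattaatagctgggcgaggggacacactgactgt
Fos: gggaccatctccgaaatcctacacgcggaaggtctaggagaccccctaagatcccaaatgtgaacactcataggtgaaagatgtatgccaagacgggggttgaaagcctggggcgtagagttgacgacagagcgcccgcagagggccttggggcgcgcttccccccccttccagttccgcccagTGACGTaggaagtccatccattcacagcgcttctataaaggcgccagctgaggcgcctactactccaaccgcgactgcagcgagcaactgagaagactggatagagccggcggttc
Jun: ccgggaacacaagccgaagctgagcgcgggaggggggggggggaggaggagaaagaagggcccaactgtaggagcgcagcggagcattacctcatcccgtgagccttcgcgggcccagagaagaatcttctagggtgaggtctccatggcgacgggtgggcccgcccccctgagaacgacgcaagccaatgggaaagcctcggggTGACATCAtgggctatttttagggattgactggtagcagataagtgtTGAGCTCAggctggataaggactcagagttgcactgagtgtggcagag

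The Nr4a1 window held 1 EGR site on the opposite strand, at position −60 from the start site (positions are those of the first base, with negative ones upstream). RefSeq gives 5 windows for Egr2, 1 of which is printed; it held a CArG box at −72 and a cyclic AMP element core at −56, as did 2 windows that overlap it. Of the other 2, 1 held a CArG box and a spaced AP-1 site and 1 held no match. The Fos window held a cyclic AMP element core at −66. The Jun window held 2 spaced AP-1 sites, at −45 and at 3. Nr4a3, not printed, held 3 cyclic AMP element cores at −231, −205 and −147, and the Cd5 window held no match. No window of Egr1 or Cd69 was searched. Of all 32817 windows of this length, 1.63% held a CArG box, 7.51% the cyclic AMP core, 7.81% TGANTCA, 14.1% TGANNTCA and 5.56% the EGR site. These are matches of letters, and no binding was measured.

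Per kilobase of exon, Fos had the highest median level over the 14 libraries, at 51.6 CPM per kb, followed by Cd5 (22.9), Jun (13.6), Nr4a1 (12.3), Egr1 (6.71), Cd69 (2.68), Nr4a3 (0.291) and Egr2 (0.221). The ranges of every neighbouring pair in this order overlapped over the libraries, those of Cd69 and Nr4a3 only between 0.284 and 0.488 CPM per kb. Within libraries, Cd69 lay above Nr4a3 in all but VTL-44 with Dox, at 0.284 against 0.334 CPM per kb. Egr1 lay above Cd69 in all but VTL-24. The order of the other neighbouring pairs turned in several libraries. None of these orders was tested. Egr2 and Nr4a3 rested on few reads, 6 to 91 and 21 to 59 counts per library. The genes differed widely in how much they varied. The highest library exceeded the lowest 75.2-fold for Fos, 57.8-fold for Jun and 42.2-fold for Cd69, 15.4-fold for Egr2, 9.37-fold for Nr4a1 and 6.13-fold for Egr1, but only 3.63-fold for Cd5 and 3.16-fold for Nr4a3.

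**Figure D1:**
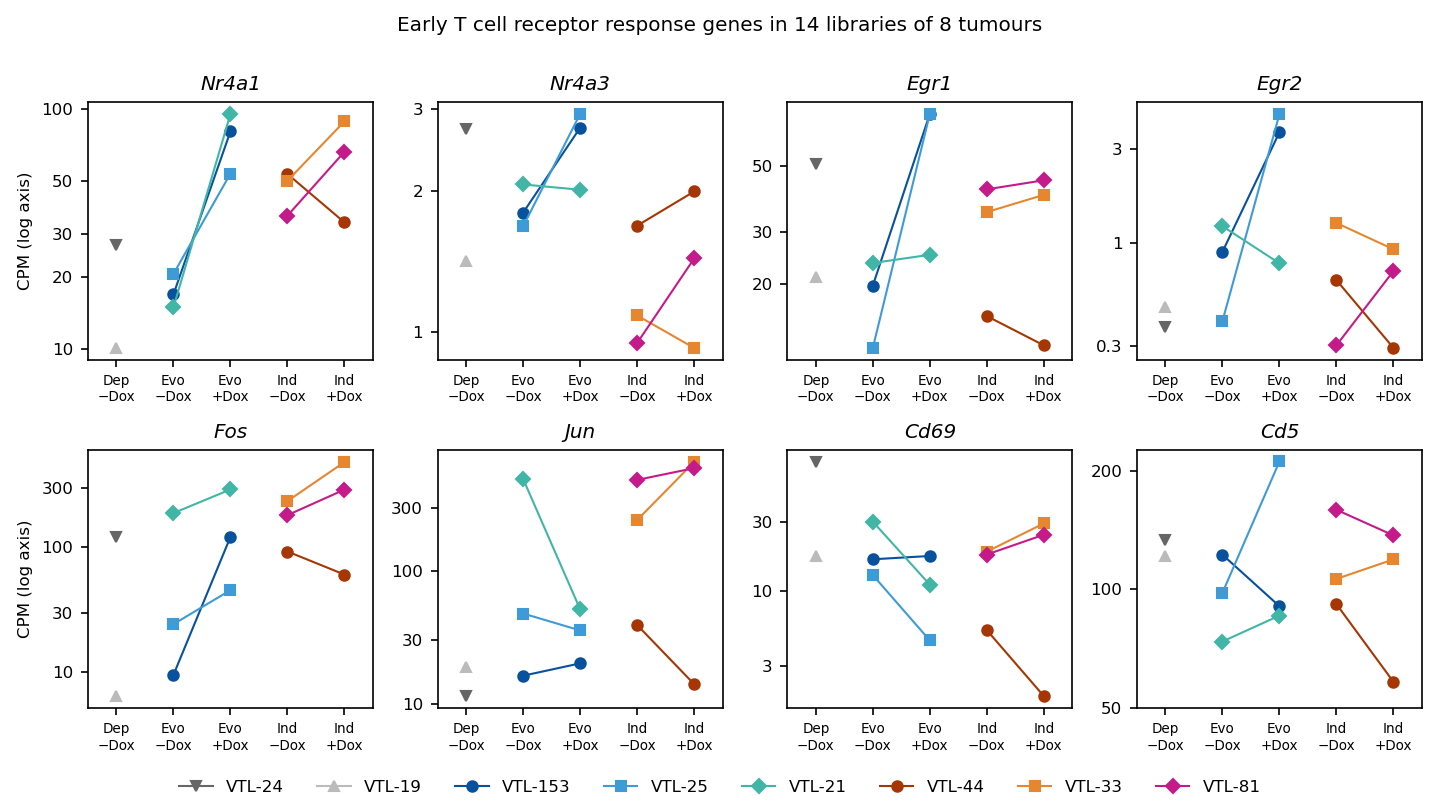
CPM (log axis, a separate scale for each gene) of the 8 listed genes in dependent (Dep), evolving (Evo) and independent (Ind) tumours without and with Dox; each point is 1 library and lines join the libraries of 1 tumour. The 3 evolving lines of Nr4a1 go up, from 15.0 to 20.6 CPM without Dox to 53.7 to 95.0 CPM with Dox, while the Jun and Cd69 lines of single tumours go in different directions.

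The first question was what Dox in the diet, under which Lmo2 was low, did to these genes in the evolving tumours. Nr4a1 (ENSMUSG00000023034, chromosome 15, 101254269 to 101274795), an orphan nuclear receptor also called Nur77, stood at 17.0 CPM in VTL-153 off Dox and at 80.4 CPM on it. The pair of levels was 20.6 and 53.7 CPM for VTL-25, and 15.0 and 95.0 CPM for VTL-21. All 3 libraries with Dox lay above all 3 without, and the share of all genes that did so was not counted. Being higher with Dox in all 3 pairs, a looser measure, held for 17.3% of all genes tested. The mean went from 17.5 ± 2.85 to 76.4 ± 20.9 CPM (SD, n = 3 tumours), and Nr4a1 rose by a log2 change of 2.10 (SE 0.38) with an adjusted p of 0.0491 by edgeR's quasi-likelihood test. It was the 1 of 8 listed genes to pass, while 2.13% of the 12360 genes tested passed.

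The adjusted p of Nr4a1 lay close to the threshold of 0.05. It was 0.155 without VTL-153 (log2 change 2.01), 0.0829 without VTL-25 (2.46) and 0.0964 without VTL-21 (1.79), and also exceeded the threshold without the independent tumours VTL-33 (0.0856) or VTL-81 (0.0796), which share the estimate of spread. In VTL-153 alone the estimate was 2.24 (adjusted p = 0.176). DESeq2 gave 8.21e-07. The summed myeloid markers were 177 CPM off and 21.6 CPM on Dox in VTL-153, 238 and 25.3 in VTL-25 and 19.7 and 232 in VTL-21. For the heat shock and handling stress genes, of which 11 of 12 were listed, the summed levels were 1631 and 2758 CPM in VTL-153, 2945 and 2451 in VTL-25, and 4262 and 2038 in VTL-21. The stromal and endothelial sum was higher with Dox in all 3, at 155 and 180 CPM in VTL-153, 178 and 270.1 in VTL-25 and 181 and 197 in VTL-21. Its 4 listed genes did not move together. Col1a2 was higher with Dox in all 3 tumours, and Col1a1 was lower in all 3. Pdgfrb was higher in VTL-25 and VTL-21 but went from 18.7 to 1.67 CPM in VTL-153. Pecam1 was higher in VTL-153 and VTL-25, and stood at 124.8 and 124.7 CPM in VTL-21. The mitochondrial share was also higher with Dox in all 3, at 1.90% and 2.08%, 1.94% and 1.95%, and 2.11% and 3.07%. The part of these in the Nr4a1 value was not tested.

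Nr4a3 (ENSMUSG00000028341, chromosome 4, 48045153 to 48086447), a relative of Nr4a1 also induced by receptor signal, showed no such step. VTL-153 had 1.80 CPM off and 2.73 CPM on Dox, VTL-25 had 1.68 and 2.92, and VTL-21 had 2.07 and 2.01. The groups overlapped narrowly, at these low counts. The log2 change was 0.45 (SE 0.49) and did not pass edgeR's test (adjusted p = 0.735), and it was 0.59 in VTL-153 alone.

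Egr1 (ENSMUSG00000038418, chromosome 18, 34859823 to 34864984), a zinc finger factor, stood at 19.8 CPM without Dox in VTL-153 and at 12.2 in VTL-25, and reached 74.9 CPM in both with it. VTL-21 had 23.6 and 25.1 CPM. The levels with Dox were thus all above those without, but only narrowly, as VTL-21 hardly differed from its partner. Here too the share of all genes standing apart in this way was not counted. The log2 change of 1.56 (SE 0.47) did not pass edgeR's test (adjusted p = 0.159). It passed without VTL-21 (2.24, adjusted p = 0.0164) and by DESeq2 (adjusted p = 0.00522), and was 1.91 in VTL-153 alone (adjusted p = 0.0745).

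Egr2 (ENSMUSG00000037868, chromosome 10, 67535475 to 67542188), a relative that also acts in thymic selection, stood at a much lower level, and like Egr1 was higher with Dox in VTL-153 and VTL-25. VTL-153 went from 0.90 CPM to 3.64, VTL-25 from 0.401 to 4.51, and VTL-21 from 1.21 to 0.786, where Egr1 hardly differed. VTL-153 and VTL-25 with Dox were the 2 highest libraries of all 14. The log2 change of 1.67 (SE 1.00) did not pass edgeR's test (adjusted p = 0.486), and it was 2.00 in VTL-153 alone (adjusted p = 0.498).

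Nab2 and Nab1, which encode co-repressors that bind Egr proteins, were also higher with Dox in VTL-153 and VTL-25; they were singled out after their values were seen. For Nab2, VTL-153 went from 11.2 CPM to 51.6, VTL-25 from 13.9 to 70.1, and VTL-21 from 3.42 to 5.60. For Nab1, VTL-153 went from 46.2 CPM to 97.5 and VTL-25 from 51.1 to 117, while VTL-21 had 50.2 and 48.6. Neither passed edgeR's test over the evolving tumours, at log2 changes of 1.78 (SE 0.41, adjusted p = 0.081) and 0.75 (SE 0.26, adjusted p = 0.206). Both passed without VTL-21 (2.24, adjusted p = 0.0371, and 1.11, adjusted p = 0.0424), and DESeq2 called Nab2 (adjusted p = 0.000442).

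Fos (ENSMUSG00000021250, chromosome 12, 85473890 to 85477273), a subunit of AP-1, was higher with Dox in each evolving tumour, but from very unequal starting levels. VTL-153 went from 9.50 CPM to 121, VTL-25 from 24.2 to 45.3 and VTL-21 from 188 to 291. The 2 groups overlapped, since VTL-21 without Dox stood above VTL-153 and VTL-25 with Dox. The log2 change of 1.65 (SE 0.66) did not pass edgeR's test (adjusted p = 0.276), whereas DESeq2 called it (adjusted p = 0.0123). It was 0.75 without VTL-153 and 3.67 in VTL-153 alone. Nr4a1, Egr1 and Fos were the 3 of 8 listed genes that were higher with Dox in all 3 evolving tumours, as were 17.3% of all genes tested.

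Jun (ENSMUSG00000052684, chromosome 4, 95049034 to 95052222), the partner of Fos, did not move with it. Its levels off and on Dox were 16.2 and 20.1 CPM in VTL-153 and 47.8 and 35.6 in VTL-25, but 492 and 51.3 in VTL-21. The library of VTL-21 without Dox was thus far above the other 5 evolving libraries. The log2 change of −1.07 (SE 0.84) did not pass edgeR's test (adjusted p = 0.615), was −0.09 without VTL-21, and was 0.30 in VTL-153 alone. The same library had the highest summed heat shock level of all 14, at 4262 CPM, and its Hspa1b, an inducible heat shock protein gene, stood at 256 CPM against 5.06 CPM with Dox. The part of that in the Jun value was not tested.

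The surface genes gave no shared direction. Cd69 (ENSMUSG00000030156, chromosome 6, 129267325 to 129275436), which holds activated T cells in lymphoid tissue, had 16.5 and 17.4 CPM in VTL-153, but 12.8 and then 4.51 in VTL-25, and 30.1 and then 11.0 in VTL-21. Its log2 change was −0.97 (SE 0.51, edgeR adjusted p = 0.418), and 0.07 in VTL-153 alone. Cd5 (ENSMUSG00000024669, chromosome 19, 10717116 to 10739002) had 122 CPM off and 90.5 CPM on Dox in VTL-153, 97.96 and 211 in VTL-25, and 73.7 and 85.7 in VTL-21. Its log2 change was 0.30 (SE 0.30, edgeR adjusted p = 0.712), −0.10 without VTL-25 and −0.44 in VTL-153 alone. In VTL-25 and VTL-21 Nr4a1 was thus higher and Cd69 lower with Dox.

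**Figure D2:**
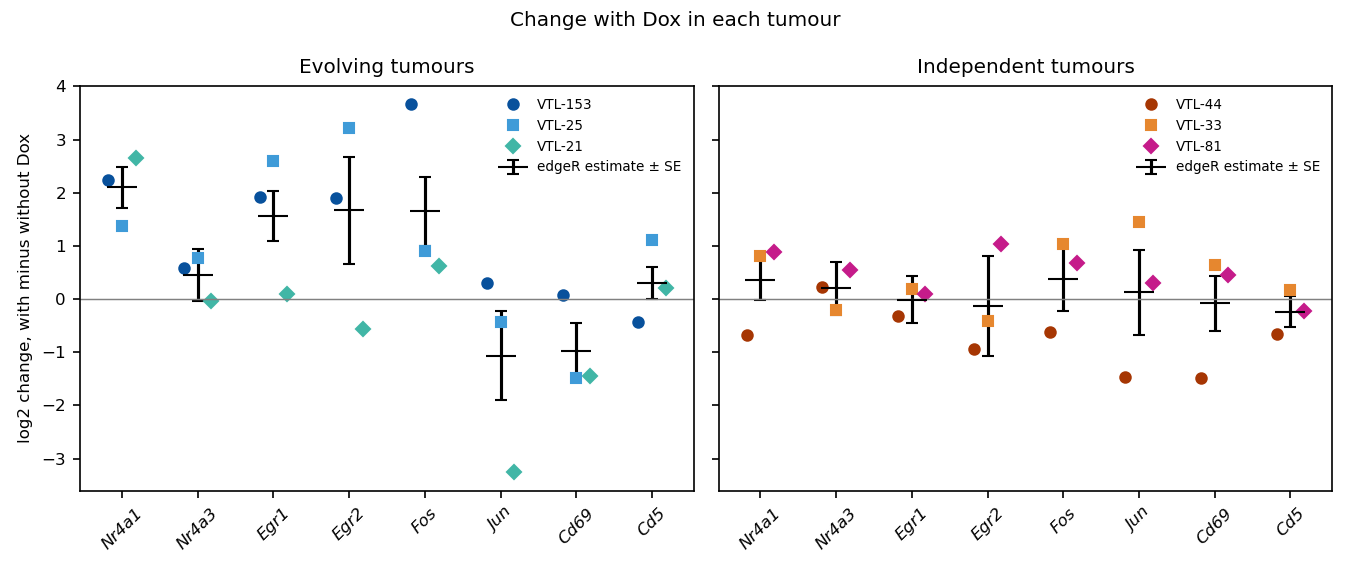
Change with Dox in log2 CPM (with minus without, prior count 2) for each evolving (left) and independent (right) tumour, as coloured points, with the edgeR estimate and its SE in black. On the left all 3 Nr4a1 points lie well above 0, Egr1 and Egr2 are high in VTL-153 and VTL-25 only, and the VTL-21 point of Jun is far below; on the right the VTL-44 point lies below 0 for every gene but Nr4a3.

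The same question was put to the independent tumours, of which VTL-44 and VTL-81 held little Lmo2 even without Dox (9.28 and 27.2 CPM). No gene passed edgeR's test there (0.0% of 12360 genes, with 87 at an unadjusted p below 0.05 and 0 called by DESeq2). Nr4a1 had 53.5 CPM off and 33.7 CPM on Dox in VTL-44, went from 50.2 to 88.4 CPM in VTL-33 and from 35.9 to 66.2 CPM in VTL-81. Its groups overlapped, with a log2 change of 0.36 (SE 0.37, adjusted p = 1). Fos had the same pattern, from 92.5 to 60.4 CPM in VTL-44, from 235 to 482 CPM in VTL-33 and from 181 to 290 CPM in VTL-81. Its log2 change was 0.38 (SE 0.61, edgeR adjusted p = 1).

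Jun and Cd69 also parted by tumour. Jun went from 39.1 to 14.03 CPM in VTL-44, from 242 to 660 CPM in VTL-33 and from 484 to 594 CPM in VTL-81. Cd69 went from 5.31 to 1.85 CPM in VTL-44, from 18.6 to 29.3 CPM in VTL-33 and from 17.8 to 24.4 CPM in VTL-81. For these 4 genes, Nr4a1, Fos, Jun and Cd69, VTL-44 was lower with Dox and both VTL-33 and VTL-81 were higher. The myeloid, the stromal and endothelial, and the heat shock sums moved the same way, and the other marker sums did not. In VTL-33 the T lineage sum was 7682 CPM off and 6699 CPM on Dox. The B cell sum was 552 and 500 CPM there, and the natural killer sum 858 and 648 CPM. In VTL-44 the erythroid sum was 29.8 and 125 CPM. The myeloid sum was 1594 CPM off and 852 CPM on Dox in VTL-44, 81.9 and 209 in VTL-33, and 205 and 2219 in VTL-81, with S100a8 and S100a9 among its highest genes. The stromal and endothelial sum was 431 and 364, 257 and 886, and 630 and 902 CPM in the same order of tumours, and the heat shock sum 1764 and 1331, 2479 and 2549, and 2058 and 2817 CPM. Not every gene of these lists followed its sum. Pdgfrb and Pecam1 did, but Col1a1 was lower with Dox in each tumour, and Col1a2 was higher in VTL-44 (10.1 and 21.6 CPM). In VTL-33 Hspa8 rose from 837 to 992 CPM, while Hsp90aa1 fell from 646 to 582 CPM. The mitochondrial share was 4.92% and 2.31%, 4.25% and 6.01%, and 1.62% and 5.73%. The part of these in the 4 genes' values was not tested.

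Egr1 moved little in any independent tumour, from 15.6 to 12.5 CPM in VTL-44, from 35.0 to 40.0 CPM in VTL-33 and from 41.7 to 44.8 CPM in VTL-81. Its log2 change was −0.01 (SE 0.43, edgeR adjusted p = 1). Egr2 stayed between 0.292 and 1.26 CPM, Nr4a3 between 0.926 and 2.00 CPM and Cd5 between 58.2 and 159 CPM. No listed gene moved the same way in all 3 independent tumours, whereas 8.71% of all genes tested were higher and 8.31% lower with Dox in all 3.

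Whether the 2 classes differed in their response was tested by the difference of the log2 changes, independent minus evolving. It was −1.74 for Nr4a1 (SE 0.53, adjusted p = 0.328), −1.57 for Egr1 (SE 0.64, adjusted p = 0.4995), −1.80 for Egr2 (SE 1.37, adjusted p = 0.805) and −1.27 for Fos (SE 0.89, adjusted p = 0.785) by edgeR. Jun and Cd69 differed the other way, by 1.19 (SE 1.16) and 0.89 (SE 0.73). None of the 8 genes passed, against 0.121% of all genes tested, and 2 of the 8, Nr4a1 and Egr1, had an unadjusted p below 0.05. DESeq2 called 1, Nr4a1 (adjusted p = 0.0244). The Nr4a1 rise in evolving tumours is thus not shown by edgeR to differ from the change in independent ones.

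Without Dox the classes could be compared over all 8 tumours. Nr4a1 stood at 27.1 (VTL-24) and 10.1 CPM (VTL-19) in the dependent tumours, at 15.0 to 20.6 CPM in the evolving and at 35.9 to 53.5 CPM in the independent tumours. Each independent tumour was thus above each of the other 5, before any Dox. The summed stromal and endothelial markers stood apart likewise, at 257 to 630 CPM in the independent and 142 to 181 CPM in the other tumours. Of the 4 listed genes, Pdgfrb (117 to 377 against 0 to 50.9 CPM) and Col1a2 (10.1 to 117 against 0 to 2.525 CPM) stood apart. Pecam1 overlapped, at 118 to 167 against 125 to 142 CPM. Col1a1 overlapped too, with VTL-33 at 2.61 CPM below VTL-19 at 19.8 CPM. The part of these markers in the Nr4a1 difference was not tested. The difference was 1.32 against dependent (SE 0.42, adjusted p = 0.254) and 1.41 against evolving tumours (SE 0.36, adjusted p = 0.139), and neither passed edgeR's test. DESeq2 called both, with adjusted p of 0.0479 and 0.00751. Evolving and dependent tumours differed by −0.09 (SE 0.40, edgeR adjusted p = 1), and by 0.79 when VTL-24 was left out.

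With Dox the order closed up. Nr4a1 stood at 53.7 to 95.0 CPM in evolving and at 33.7 to 88.4 CPM in independent tumours, which overlapped (difference −0.29, SE 0.38, edgeR adjusted p = 0.975). The levels of the evolving tumours with Dox thus lay above the 35.9 to 53.5 CPM of the independent tumours without Dox. The margin was narrow, 53.7 CPM in VTL-25 against 53.5 CPM in VTL-44. That contrast differs in both class and Dox, was not tested, and its share over all genes was not counted. These comparisons share libraries with the Dox comparison above, the evolving libraries without Dox among them.

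Jun was the other gene on which the classes stood apart without Dox, at 11.4 and 18.8 CPM in the dependent tumours and at 39.1, 242 and 484 CPM in the independent tumours. The difference of 4.08 (SE 1.71) did not pass edgeR's test (adjusted p = 0.372). Nr4a1 and Jun were the 2 of 8 genes whose independent tumours all exceeded the dependent ones, as did 14.4% of all genes, and Nr4a1 was the 1 of 8 against evolving tumours, beside 11.4% of all genes. In the evolving tumours Jun spanned 16.2 to 492 CPM, so that those groups overlapped (difference 0.46, SE 1.27, edgeR adjusted p = 0.90), and the sign turned without VTL-153, VTL-25 or VTL-81. With Dox, Jun stood at 20.1 to 51.3 CPM in evolving tumours and at 14.03, 660 and 594 CPM in independent tumours, a difference of 3.55 (SE 1.23, edgeR adjusted p = 0.974) made by VTL-33 and VTL-81.

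Fos without Dox ranged as widely within classes as between them. It stood at 122 (VTL-24) and 6.41 CPM (VTL-19) in the dependent tumours, at 9.50 (VTL-153), 24.2 (VTL-25) and 188 CPM (VTL-21) in the evolving class, and at 92.5, 235 and 181 CPM in the independent tumours. The dependent tumours split likewise for Cd69, at 78.1 CPM in VTL-24, the highest of all libraries, and 17.5 CPM in VTL-19. Independent minus dependent was −1.78 for Cd69 (SE 0.74, edgeR adjusted p = 0.369), and −0.33 without VTL-24. Egr1 stood at 50.9 and 21.2 CPM in these 2 tumours, so that VTL-24 was above VTL-19 for Nr4a1, Nr4a3, Egr1, Fos, Cd69 and Cd5 but not for Egr2 (0.374 and 0.473 CPM) or Jun.

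Across these comparisons the listed genes did not pass edgeR's test. The share called over all genes was 0.0972% for independent against dependent tumours, with 3 of the 8 listed genes (Nr4a1, Jun and Cd69) at an unadjusted p below 0.05, and 1 called by DESeq2. It was 0.259% for independent against evolving tumours without Dox, with 1 (Nr4a1) below 0.05, the gene that DESeq2 called. It was 0.0% for evolving against dependent tumours (419 genes below 0.05 unadjusted, 64 called by DESeq2), with 0 listed genes below 0.05 and 0 called by DESeq2. With Dox it was 0.0% for independent against evolving tumours (573 genes below 0.05, 94 by DESeq2), with 2 listed genes below 0.05, Jun and Egr2, and 0 called by DESeq2. Egr2 was lower in the independent tumours there by a log2 difference of −2.21 (SE 0.88, adjusted p = 0.974), though VTL-21 at 0.786 CPM lay within their range of 0.292 to 0.926 CPM. Nr4a3 was the 1 of 8 genes lower in every independent than every evolving tumour with Dox, by the narrow margin of 2.00 against 2.01 CPM, beside 4.86% of all genes.

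Other genes of the same response were read from lists chosen for their textbook roles. Of 16 measured immediate early genes beyond the 8, 1 (against 2.13% of all genes tested) was called in the evolving tumours: Ier5, a stress and serum responsive gene, rose in each pair, VTL-153 from 18.4 CPM to 103, VTL-25 from 16.1 to 47.3 and VTL-21 from 24.2 to 70.9 (log2 change 1.86, SE 0.22, edgeR adjusted p = 0.0168). Its adjusted p was 0.0506 without VTL-25 and 0.0522 without VTL-25 and VTL-21. Ier5 stood at 57.3 to 78.4 CPM in the independent tumours without Dox and 12.9 and 32.7 CPM in the dependent ones. The median log2 change was 0.32 over the 16 genes and 1.01 over the 8 listed genes, against −0.002 over all genes. In the independent tumours these medians were 0.19 and 0.06, against 0.006.

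Of 9 measured feedback genes of the ERK pathway, 1 was called with Dox in the evolving tumours, beside 2.13% of all genes, and it went down. Dusp2, a nuclear phosphatase of ERK that is itself induced by receptor signal, fell in each pair, VTL-153 from 86.2 CPM to 43.9, VTL-25 from 72.9 to 27.6 and VTL-21 from 184 to 50.7 (log2 change −1.41, SE 0.21, edgeR adjusted p = 0.0247). The call ended without VTL-25 (adjusted p = 0.095) or VTL-81 (0.0537), and in VTL-153 alone (−0.98, 0.212). The median over the 9 genes was 0.42.

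Of 20 later activation genes, 3 were called higher with Dox in the evolving tumours and 0 lower, beside 2.13% of all genes called, and 15 estimates lay above 0 and 5 below. Id3, an inhibitor of E proteins, rose, VTL-153 from 5.60 CPM to 72.2, VTL-25 from 7.25 to 124 and VTL-21 from 7.91 to 27.0 (log2 change 3.21, SE 0.53, edgeR adjusted p = 0.0388). The Id3 call ended without any 1 of VTL-153 (2.93, adjusted p = 0.13), VTL-25 (2.72, 0.138), VTL-44 (0.0698), VTL-33 (0.0612) and VTL-81 (0.0776). Il2ra, which encodes the alpha chain of the interleukin-2 receptor, was lower with Dox in all 3 pairs, with 1498 and 230.4 CPM in VTL-153, 1488 and 45.5 in VTL-25 and 955 and 558 in VTL-21. It did not pass edgeR's test (log2 change −2.81, SE 0.93, adjusted p = 0.199). DESeq2 called it (adjusted p = 0.0223), and it was singled out after its values were seen. The costimulatory receptor gene Icos and the inhibitory receptor gene Ctla4 also rose, to 29.1 and 114 CPM in VTL-153, 54.4 and 20.3 CPM in VTL-25, and 5.25 and 7.17 CPM in VTL-21. Without VTL-25 and VTL-21 neither passed (adjusted p = 0.0624 and 0.0537). The median over the 20 genes was 0.36. Of 16 genes next to the receptor itself, 1 was called, beside 2.13% of all genes: Fyn, a kinase of the receptor complex, rose by 1.56 (SE 0.16, edgeR adjusted p = 0.0127), from 133, 103 and 116 CPM to 377, 354 and 306 CPM, and the median of that list was 0.17. Its adjusted p was 0.052 without VTL-25 and 0.109 without VTL-25 and VTL-21. In the other 6 comparisons, Icos and Ctla4 were called in the difference between the classes' responses, beside 0.121% of all genes tested. That call ended without any 1 of the tumours but VTL-21, and no other gene of these 4 lists was called.

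**Figure D3:**
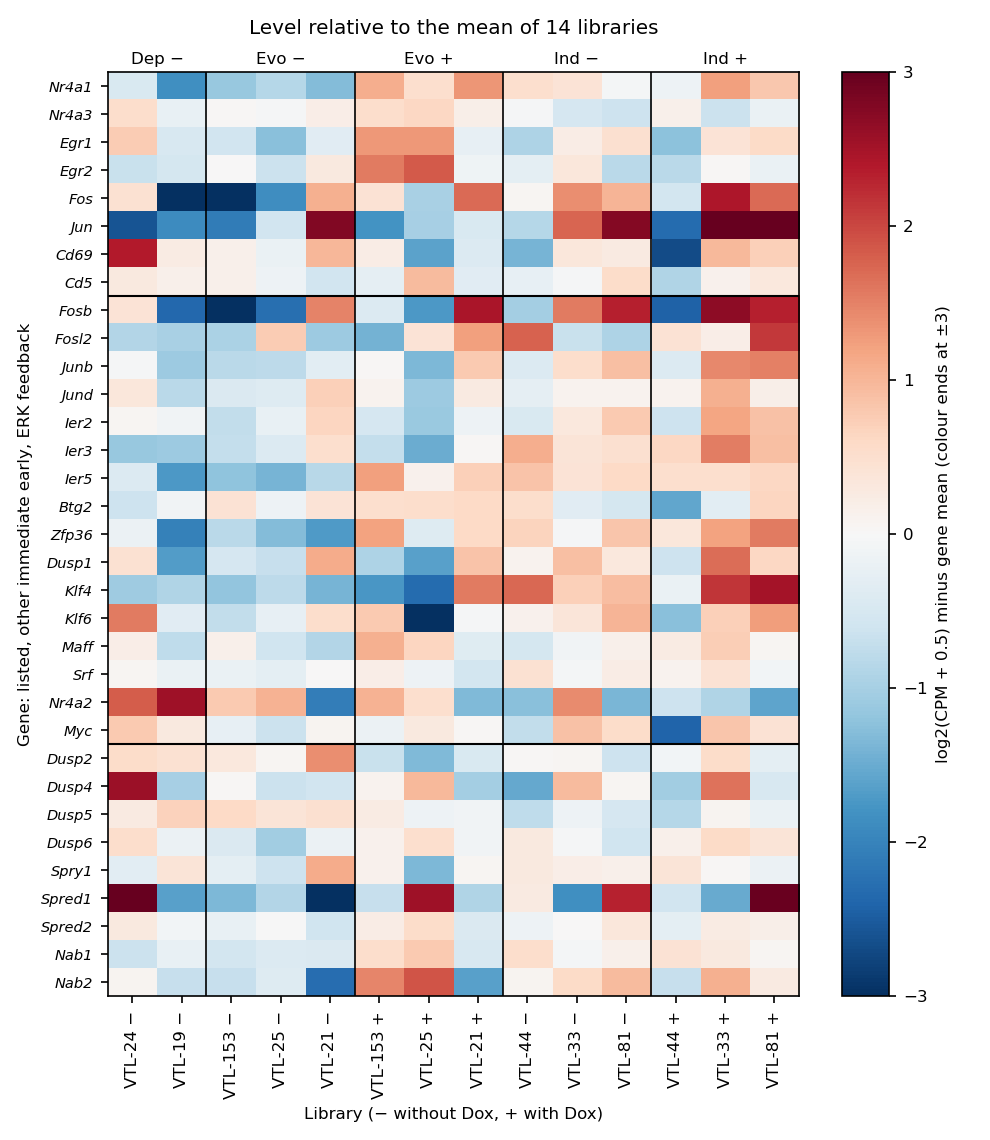
Level of the 8 listed genes (top), 16 other immediate early genes (middle) and 9 ERK feedback genes (bottom) in each library, as log2(CPM + 0.5) minus the gene's mean over the 14 libraries; columns are libraries grouped as dependent (Dep), evolving (Evo) and independent (Ind) without (−) and with (+) Dox. Nr4a1 and Ier5 are above their means in all 3 evolving libraries with Dox, and the highest Fos, Fosb and Jun levels are those of VTL-33 with Dox.

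The listed genes did not form 1 block across the 14 libraries. Pearson correlations of log2 CPM between pairs of them ran from −0.66 (Nr4a3 and Jun) to 0.73 (Nr4a1 and Fos). Fos and Jun correlated at 0.66 and Egr1 and Egr2 at 0.62, while Nr4a1 and Nr4a3, of the same family, correlated at −0.04. Egr1 and Cd5 stood at 0.62, and Fos and Fosb, its close relative, at 0.91. These are descriptions over 14 libraries in which 12 come in pairs from 6 tumours. The Cd69 level correlated with the summed heat shock genes at 0.64, Jun at 0.48, Fos at 0.40 and Nr4a1 at −0.003, and the other 4 at 0.12 to 0.41. With the summed myeloid markers the values were −0.55 for Egr2, −0.51 for Egr1, −0.43 for Nr4a3, −0.38 for Cd69 and −0.19 for Cd5, and 0.20 for Nr4a1, 0.14 for Jun and 0.07 for Fos. The part of these in the levels was not tested.

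**Figure D4:**
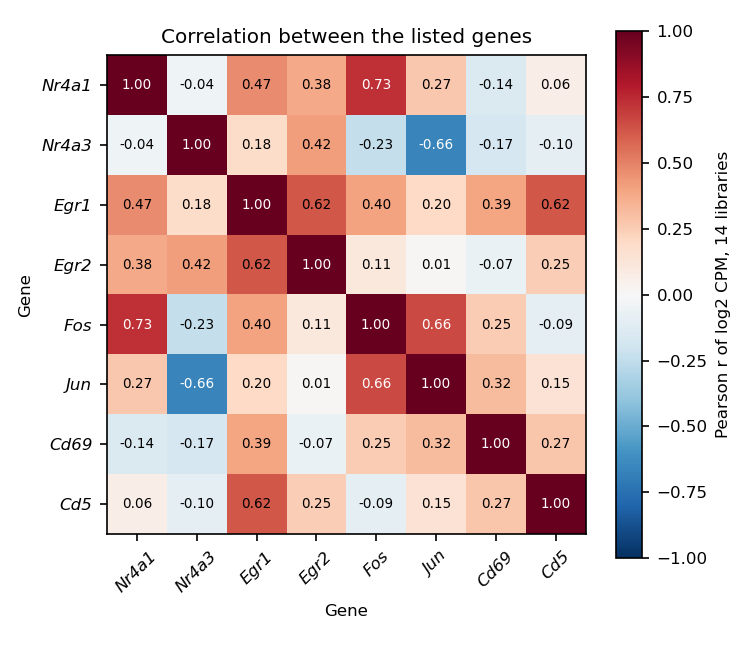
Pearson correlation of log2 CPM over the 14 libraries for each pair of the 8 listed genes, from −1 (blue) to 1 (red). The strongest positive value is 0.73 for Nr4a1 and Fos, the strongest negative −0.66 for Nr4a3 and Jun.

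Apart from the listed genes themselves, the genes most like each of them over the same 14 libraries were as follows, with Pearson's r. For Nr4a1 they were Rnf149 (0.94), Sgk1 (0.90) and Vezt (0.90), and for Nr4a3 Degs1 (0.89), Plcxd2 (0.88) and Slc9a3r1 (0.86). Egr1 was closest to Ehd3 (0.92), Fam117b (0.88) and Fam134b (0.88), and Egr2 to Dclk2 (0.92), Trib2 (0.82) and Tgds (0.80). Fos was closest to Ppp1r15a (0.92), Fosb (0.91) and Prdm11 (0.89), and Jun to Adssl1 (0.91), F2rl3 (0.89) and Mrps25 (0.89). Cd69 was closest to Harbi1 (0.88), Rrp8 (0.87) and Wdr55 (0.87), and Cd5 to Hivep2 (0.91), Uprt (0.89) and Lcp2 (0.88).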

How the data were processed

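Alignment used STAR 2.5.2b and the mm10 build, and counting used featureCounts, per the submitters' processing notes; the annotation and strand setting are not given in the sources used here. The values used were the raw counts per gene and library that the authors deposited, with 18214415 to 24048281 counts per library. Every one of the 12421 genes listed reached 1 CPM in 2 or more libraries. Its 42 other columns of per-sample values were not used. Positions are from GENCODE M21, which held 12379 of the identifiers, 11856 with the same symbol, including all 8 genes described.

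Tests were run in edgeR 4.0.16 (R 4.3.3) with TMM factors, a minimum count of 10 and robust quasi-likelihood fits, and p-values were adjusted by Benjamini-Hochberg across every gene tested (threshold 0.05). The 12 libraries of 6 tumours were fitted with a block for tumour and 1 Dox term per class, and classes were compared over the 8 libraries without or the 6 with Dox. The SE, an approximation, divides the absolute log2 change by the root of its F statistic. The tumour number in the titles pairs the libraries. Deviations from group means correlated between partners at 0.563 to 0.716 in the independent tumours, but at only 0.188 (VTL-153), 0.151 (VTL-21) and 0.0166 (VTL-25) in the evolving ones. Where 1 dependent tumour was left out, the remaining one was assumed to vary like the others.

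All listed genes are named, up to 4 passing genes of each of 4 lists, and for each gene the 3 most correlated genes with a mean log2 CPM of at least 2 (prior count 2), leaving out receptor segments, predicted genes and pseudogenes. The genes, lists and 7 marker lists were chosen with earlier results of these data known. Alternatives were DESeq2 1.42.0, RLE factors, no filter, a minimum count of 50, no block, and each tumour left out; leaving out both VTL-25 and VTL-21 was chosen after seeing the data. The fits were also run on simulated counts, drawn with the same spread for every gene and no difference between tumours. Such counts cannot check the block for tumour.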

Additional observations from a re-analysis of the deposited data

Results flagged for a closer look

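The Dox responses of 2 of the 20 later activation genes differed between the tumour classes by edgeR's test of the difference itself, independent minus evolving. Over all 12360 genes tested, 0.121% were called in that comparison. For Ctla4 the log2 difference was −5.51 (SE 0.64, adjusted p = 0.0486), going from 0.805 ± 0.776 to 47.1 ± 58.1 CPM in evolving and from 2.84 ± 3.29 to 2.12 ± 1.79 CPM in independent tumours (SD, n = 3). Icos differed by −4.85 (SE 0.49, adjusted p = 0.0445), going from 1.04 ± 0.734 to 29.6 ± 24.6 CPM in evolving and from 5.71 ± 4.17 to 5.41 ± 4.06 CPM in independent tumours. Both were higher with Dox in 3 of 3 evolving tumours. Both calls ended when VTL-153, VTL-25, VTL-44, VTL-33 or VTL-81 was left out (adjusted p from 0.0624 to 0.19), without VTL-25 and VTL-21 together (0.0759 and 0.087), and with no replicate block (0.45 and 0.455); they held without VTL-21 and by DESeq2. In both genes the evolving libraries without Dox held few counts, 7 to 34 for Ctla4 and 5 to 33 for Icos, so the sizes are imprecise.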

How the results depend on the processing

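Of the listed genes' estimates under the alternatives, 593 kept their direction and call, 29 turned, 6 lost and 6 gained a call. Of the named genes of the other lists, 95 kept both, 33 lost and 4 gained a call, and none turned. Listed genes called with Dox in the evolving tumours numbered 3 by DESeq2 (Nr4a1, Egr1 and Fos), 0 to 1 when a tumour was left out and 0 without VTL-25 and VTL-21; DESeq2 called 1, Nr4a1, in the difference of responses and in independent against dependent and against evolving tumours without Dox.

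Genes called overall with Dox in the evolving tumours numbered 263, against 1314 by DESeq2, 73 with no replicate block, 49 (without VTL-25) to 347 (without VTL-21) with a tumour left out, and 12 without VTL-25 and VTL-21. For the difference of responses 15 became 549 by DESeq2, 1 without the block, 0 (without any 1 of VTL-25, VTL-44, VTL-33 and VTL-81) to 58 (without VTL-21), and 6 without VTL-25 and VTL-21. Independent against dependent tumours gave 12, against 791 by DESeq2 and 2 (without VTL-153) to 73 (without VTL-44). Independent against evolving tumours without Dox gave 32, against 1068 by DESeq2 and 3 (without VTL-153 or VTL-25) to 144 (without VTL-44). The comparisons with 0 calls gave 64 by DESeq2 and 0 to 1 with a tumour left out for evolving against dependent, and 94 and 0 to 4 for independent against evolving with Dox. Without the block no call among the listed genes changed: Nr4a1 kept its call (2.12, adjusted p = 0.0242). Ctla4 (0.0983), Icos (0.0824), Id3 (0.238) and Dusp2 (0.126) lost theirs with Dox in the evolving tumours.

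Directions turned only where estimates were uncalled. Without VTL-25 and VTL-21 these were, with Dox in the evolving tumours, Cd69 (0.071), Cd5 (−0.44) and Jun (0.30), and in the difference Cd69 (−0.14), Cd5 (0.20) and Jun (−0.18). With no replicate block Egr1 became 0.073 and Cd69 0.41 in the independent tumours. With a tumour left out, ranges crossed 0 with Dox for Cd5 in the evolving tumours (−0.10 to 0.65), and in the independent tumours for Egr1 (−0.12 to 0.15), Egr2 (−0.76 to 0.35), Cd69 (−0.51 to 0.55) and Jun (−0.58 to 0.87). They did so without Dox for Egr1 (−0.72 to 0.54) and Cd5 (−0.36 to 0.06) in independent against dependent tumours, for Egr2 (−0.82 to 0.19) and Jun (−0.40 to 2.997) in independent against evolving tumours, and for Nr4a1 (−0.63 to 0.79), Nr4a3 (−0.55 to 0.38), Cd69 (−1.98 to 0.18) and Fos (−1.94 to 3.53) in evolving against dependent tumours. With Dox, Nr4a1 (−0.64 to 0.031) and Cd5 (−0.54 to 0.23) crossed 0 in independent against evolving tumours. The causes were not tested. With 2 or 3 tumours a class and 6 to 91 counts for Egr2, small differences were not detectable. Large ones could go uncalled too. Even the fall of Lmo2 with Dox in the evolving tumours did not pass edgeR's test (log2 change −8.98, SE 1.95, adjusted p = 0.0782). A gene that did not pass is therefore not shown to be unchanged.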
